A study of Homo sapiens with 20 samples.

Results

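The keratins described here are KRT5, KRT14 and KRT15, which epithelial biology knows as keratins of the basal layer, and KRT6A, KRT6B, KRT6C, KRT16 and KRT17, which stratified epithelia are known to raise after wounding. They were taken by gene symbol from the deposited count table, where all 8 were found among 60671 gene identifiers, and all 8 had enough counts to be tested, as had 22938 genes in all. RNA was sequenced from hTCEpi, a human line that came from corneal epithelium, was immortalized with telomerase and grew in keratinocyte growth medium 2 with 0.15 mM calcium chloride. The cells were given recombinant human SPARC, a secreted glycoprotein of the extracellular matrix, for 24 hours at 0 µg/ml (control), 0.05 µg/ml (SPARC 0.05), 0.5 µg/ml (SPARC 0.5) or 5 µg/ml (SPARC 5), with 5 samples in each group. All 20 samples are of this 1 line, and nothing in the labels says whether the 5 samples of a group came from separate cultures, so p-values measure the spread between these samples, which may be technical.

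Keratins form intermediate filaments only as pairs, 1 acidic type I chain with 1 basic type II chain. KRT14 and KRT15 are type I partners of the type II keratin KRT5 in basal cells, and KRT15 is often used as a marker of quiescent or progenitor-rich regions such as the limbus at the rim of the cornea. KRT6A, KRT6B and KRT6C are type II chains that pair with the type I chains KRT16 and KRT17 in activated keratinocytes. In the mature cornea the differentiated epithelium is known instead for KRT3 and KRT12.

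The type II genes lie together on chromosome 12 and the type I genes on chromosome 17, all on the minus strand of GRCh38. KRT5 (ENSG00000186081) is at chr12:52514575-52520687, KRT6A (ENSG00000205420) at chr12:52487174-52493257, KRT6B (ENSG00000185479) at chr12:52446651-52452126 and KRT6C (ENSG00000170465) at chr12:52468516-52473785. KRT14 (ENSG00000186847) is at chr17:41582279-41586921, KRT15 (ENSG00000171346) at chr17:41513743-41522529, KRT16 (ENSG00000186832) at chr17:41609778-41615899 and KRT17 (ENSG00000128422) at chr17:41619441-41624842. In the GENCODE 29 annotation no gene on the opposite strand overlaps them, and the microRNA gene MIR6510 lies inside KRT15 on the same strand.

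The 3 KRT6 genes are near-identical copies, so their separate counts depend on a few positions. Their coding sequences are 1692 bases each, and KRT6A and KRT6B are alike at 97.5% of positions, KRT6A and KRT6C at 97.9% and KRT6B and KRT6C at 98.5%. In all, 51 of the 1692 positions are not alike in the 3 genes. The stretch from coding base 663 to coding base 722 is shown because it holds 9 of those positions within 60 bases, marked by capitals, and can tell the genes apart. It was read from the GENCODE 29 transcripts on chromosome 12, 5′ to 3′ on the coding strand.
KRT6A: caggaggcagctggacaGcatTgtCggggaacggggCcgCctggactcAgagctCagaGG
KRT6B: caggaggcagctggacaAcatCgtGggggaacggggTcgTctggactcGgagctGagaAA
KRT6C: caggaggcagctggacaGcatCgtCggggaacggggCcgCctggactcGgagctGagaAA
In other stretches a read cannot tell the copies apart, such as a run of 349 identical coding bases that KRT6A and KRT6C share. Of all windows of 150 bases, the read length, 9.25% of those of KRT6A, 12.8% of those of KRT6B and 16.5% of those of KRT6C occur exactly in another gene. KRT14 and KRT16 are alike at 85.1% of coding positions and share 0.595% and 0.736% of their windows with another gene. KRT5, KRT15 and KRT17 share none. How reads that match several genes were counted is not given in the sources used here. The separate values of KRT6A, KRT6B and KRT6C are therefore uncertain.

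Total counts per library were between 31955358 and 50112286, and the 8 keratins took between 1.52% and 1.63% of them. The line had the basal regulator TP63 at 264 to 289 CPM (counts-per-million, scaled by the trimmed mean of M values) and PAX6, a regulator of eye identity, at 6.32 to 8.98 CPM. The keratins of differentiated cornea were low: KRT12 was between 0 and 0.111 CPM and KRT3 between 1.28 and 2.08 CPM. Markers of stroma, immune cells, melanocytes and endothelium summed to at most 8.01, 1.87, 3.95 and 1.48 CPM in any library, with the stromal keratocyte marker KERA at 0 in all 20. SPARC 5 replicates 2 and 5 stood apart on the second principal component of log2 CPM, which held 6.59% of the variance. They lay at opposite ends, at 48.5 and −39.8, where the other 18 samples lay between −26.4 and 12.3. On the first component (8.28%) replicates 2 and 5 were at 32.2 and 34.3, near SPARC 5 replicate 4 at 33.3. Results without replicates 2 and 5 are given below.

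In control cells the pool was led by KRT5. Per kilobase of annotated exons, KRT5 had 2635 ± 82.5 CPM per kb (SD, n = 5), KRT6A 722 ± 52.1, KRT17 532 ± 12.9 and KRT14 145 ± 10.9 CPM per kb. The other members were lower. KRT6C had 17.7 ± 0.77, KRT15 16.2 ± 3.47, KRT6B 8.93 ± 0.38 and KRT16 2.21 ± 0.352 CPM per kb. KRT6C and KRT15 did not differ beyond their spread on this scale, whereas the other neighbours in the order did. The place of KRT15 depends on its length, because its annotated exons cover 7069 bases and its coding sequence 1368: per kilobase of coding sequence it had 83.5 ± 17.9 CPM, above the 30.4 ± 1.32 CPM of KRT6C. By the same coding scale KRT17 (1286 ± 31.0) and KRT6A (1249 ± 90.1) did not differ beyond their spread. Among the wound-type keratins, KRT6A and KRT17 were the most abundant in untreated cells on both scales, and KRT16 was the lowest of the 8.

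**Figure D1:**
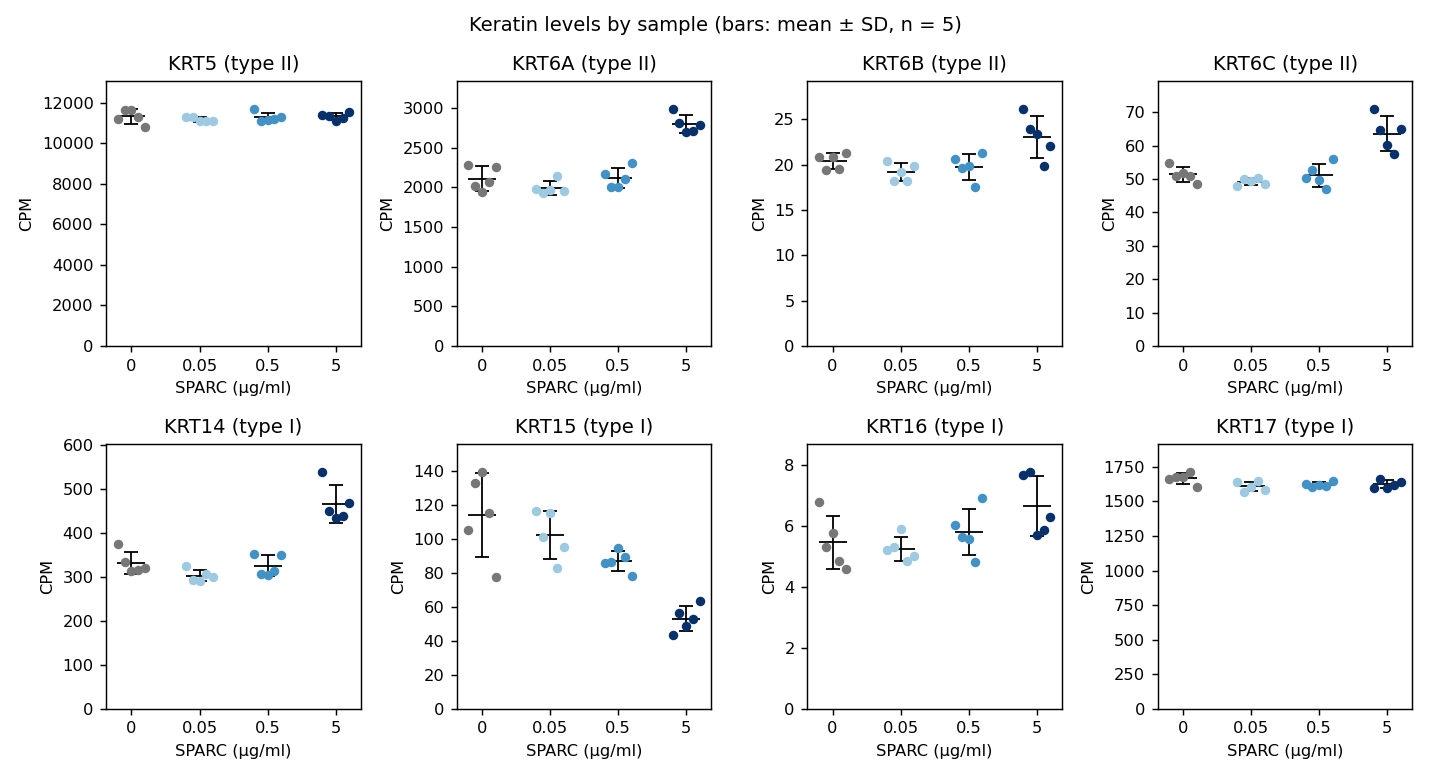
Level of each keratin in CPM (vertical axes start at 0 and differ between panels) at each SPARC dose in µg/ml, with 1 point per sample and bars for mean ± SD of 5 samples. At 5 µg/ml the points of KRT14, KRT6A and KRT6C lie above all control points and those of KRT15 below all control points, while those of KRT5 and KRT17 overlap the control points.

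After 24 hours at SPARC 5, KRT14, KRT6A and KRT6C rose and KRT15 fell, while KRT5, KRT6B, KRT16 and KRT17 did not pass the test. That is 4 of 8 keratins called at an adjusted p under 0.05, against 11.6% of all genes tested. Of the 8, 3 rose against 7.05% of all genes, and 1 fell against 4.58%. The share depends on the counts of the genes: with a minimum count of 100, 2822 of 12800 genes were called, and 5 of the 8 keratins. The test was the quasi-likelihood F-test of edgeR with Benjamini-Hochberg adjustment over 22938 genes, as for every adjusted p below unless another test is named. The median log2 fold change of the 8 keratins was 0.23, where that of all genes was −0.01. The keratins that moved include members of both groups and of both types, and the basal keratins KRT14 and KRT15 moved in opposite directions.

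KRT14, the basal type I keratin mutated in a blistering disease of the skin, had 373, 334, 313, 316 and 319 CPM in control, 323, 293, 290, 306 and 300 CPM at SPARC 0.05, 353, 306, 303, 312 and 349 CPM at SPARC 0.5 and 537, 448, 434, 439 and 467 CPM at SPARC 5. All 5 samples at SPARC 5 were above every other sample, with replicate 1 the highest. The mean was 465 ± 42.3 CPM at SPARC 5 against 331 ± 25.0 CPM in control (SD, n = 5 each), 1.40 times the control, which is 0.49 ± 0.06 on the log2 scale (SE; adjusted p = 3.91e-05). Without SPARC 5 replicates 2 and 5, the log2 fold changes were 0.50 for KRT14, −1.24 for KRT15, 0.40 for KRT6A and 0.29 for KRT6C, with adjusted p between 1.37e-05 and 0.000494. At SPARC 0.05 all 5 KRT14 samples were below the control mean. The log2 difference of −0.13 ± 0.07 did not pass (adjusted p = 0.579). With replicate number as a block it passed (−0.13 ± 0.03, adjusted p = 0.00315). It did not when values were also corrected for gene GC content and length (−0.08 ± 0.02, adjusted p = 0.217).

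KRT5, the basal type II partner of KRT14, had 11377, 11328, 11102, 11232 and 11520 CPM at SPARC 5 and 11179, 11649, 11649, 11271 and 10807 CPM in control. The groups overlapped throughout, and the control samples covered the wider range. The log2 difference was 0.00012 ± 0.016 (SE; adjusted p = 0.997) at SPARC 5, and −0.01 ± 0.02 and −0.02 ± 0.02 at SPARC 0.5 and SPARC 0.05. The SPARC 5 value was so near 0 that its sign differed in 19 of 32 alternative settings. With library sizes alone it was −0.05 (adjusted p = 0.0281), when the median of all genes was also −0.05.

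KRT15, the other basal type I keratin, had 105, 133, 139, 115 and 77.6 CPM in control, 117, 101, 116, 82.9 and 95.0 CPM at SPARC 0.05, 85.7, 86.5, 95.0, 89.2 and 78.4 CPM at SPARC 0.5 and 43.7, 56.2, 48.9, 52.9 and 63.6 CPM at SPARC 5. The 5 samples at SPARC 5 were below all others, and control replicate 5 was the lowest control by a wide margin. The mean was 53.0 ± 7.52 CPM at SPARC 5 against 114 ± 24.5 CPM in control, 0.465 times the control, and KRT15 fell by 1.11 ± 0.14 on the log2 scale (SE; adjusted p = 2.98e-05). Its spread in control was the widest of the members, with a coefficient of variation of 21.5%, against 3.13% for KRT5. At SPARC 0.5 all 5 samples were below the control mean (log2 −0.39 ± 0.14, adjusted p = 0.18), and at SPARC 0.05 the value was −0.16 ± 0.14 (adjusted p = 0.82). Control replicate 5 decided the call at SPARC 0.5: without it the value was −0.50 (adjusted p = 0.0287). In the authors' deposited table, KRT15 at SPARC 0.5 had a log2 fold change of −0.38 with an adjusted p of 0.00279.

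Among the wound-type type II keratins, KRT6A was by far the most abundant. It had 2287, 2019, 1938, 2064 and 2257 CPM in control, 1987, 1929, 1965, 2142 and 1952 CPM at SPARC 0.05, 2170, 2007, 2010, 2106 and 2306 CPM at SPARC 0.5 and 2984, 2811, 2699, 2715 and 2789 CPM at SPARC 5. The lowest sample at SPARC 5 was above the highest of every other group. KRT6A averaged 2800 ± 113 CPM at SPARC 5 and 2113 ± 153 CPM in control, 1.33 times the control, or 0.41 ± 0.05 on the log2 scale (SE; adjusted p = 1.50e-05).

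KRT6C also rose, from a much lower level. Its 5 samples at SPARC 5 had 70.8, 64.5, 60.1, 57.4 and 65.1 CPM, against 54.7, 50.8, 51.9, 50.9 and 48.6 CPM in control, without overlap. The log2 fold change was 0.31 ± 0.04 (SE; adjusted p = 5.93e-08). KRT6B had 26.1, 23.9, 23.3, 19.8 and 22.1 CPM at SPARC 5 against 20.8, 19.4, 20.8, 19.5 and 21.3 CPM in control. These groups overlapped through SPARC 5 replicate 4, and the log2 difference of 0.18 ± 0.07 did not pass (adjusted p = 0.0629), although it did without that replicate (0.23, adjusted p = 0.0159) and with values corrected for gene GC content and length (0.21, adjusted p = 0.0183). KRT6C counts were 2.27 ± 0.102% of KRT6A counts at SPARC 5 and 2.44 ± 0.192% in control, and KRT6B counts were 0.822 ± 0.061% and 0.967 ± 0.063%. With the 3 genes summed, the log2 fold change was 0.40 ± 0.05 (SE; adjusted p = 1.40e-05). Whether reads of KRT6A counted to the other copies have a part in their values was not tested.

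The wound-type type I keratins did not pass at any dose. KRT16 had 7.67, 7.76, 5.71, 5.86 and 6.29 CPM at SPARC 5 and 6.79, 5.31, 5.76, 4.84 and 4.58 CPM in control. All 5 samples at SPARC 5 were above the control mean but the groups overlapped, and the log2 difference was 0.28 ± 0.12 (SE; adjusted p = 0.127). Control replicate 1 was the highest control, and without it the value was 0.37 (adjusted p = 0.0447). KRT17 had 1593, 1663, 1599, 1618 and 1641 CPM at SPARC 5 and 1662, 1679, 1678, 1712 and 1602 CPM in control, which overlapped. Its log2 difference was −0.04 ± 0.02 (adjusted p = 0.23) at SPARC 5, and −0.04 ± 0.02 and −0.05 ± 0.02 at SPARC 0.5 and SPARC 0.05. The authors' deposited table gives KRT17 −0.05 with an adjusted p of 0.0118 at SPARC 5 and −0.06 with an adjusted p of 0.0382 at SPARC 0.05. With library sizes alone the SPARC 5 value was −0.09 (adjusted p = 0.000404), and with the GC content and length correction it was 0.00049 (adjusted p = 0.993).

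**Figure D2:**
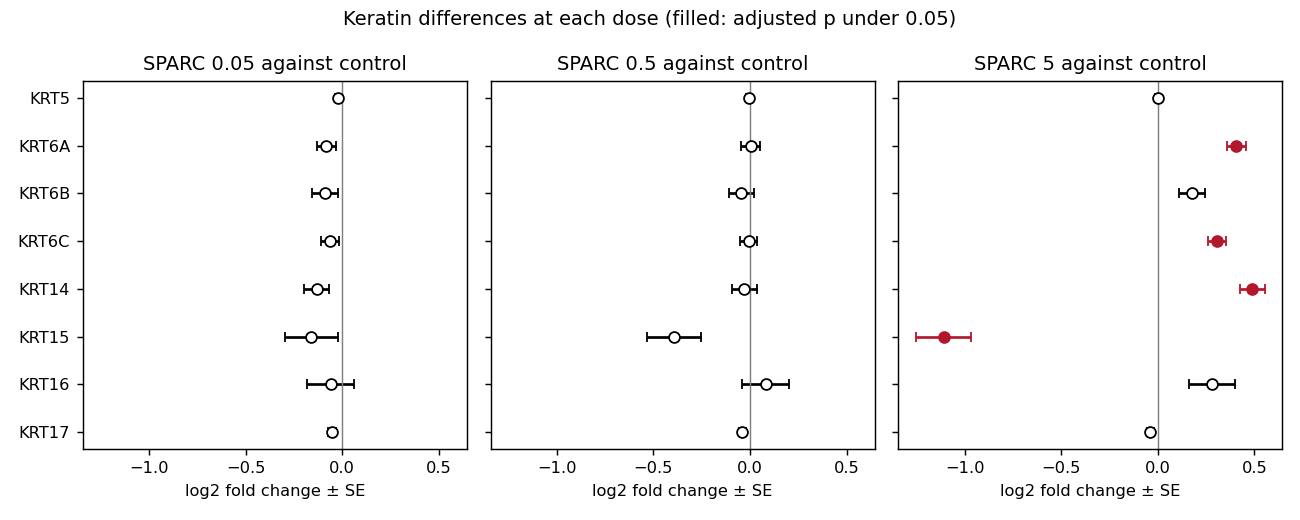
Log2 fold change of each keratin against control (points, with bars of 1 SE) at SPARC 0.05, SPARC 0.5 and SPARC 5, where filled points have an adjusted p under 0.05. The 4 filled points are all at SPARC 5: KRT14, KRT6A and KRT6C to the right of 0 and KRT15 to the left, near −1.11.

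At SPARC 0.5 and at SPARC 0.05, 0 of 8 keratins were called by edgeR against control, where 2.25% and 0.266% of all genes were. At an unadjusted p under 0.05 there were 2 keratins at SPARC 0.5, KRT15 and KRT17, and 1 at SPARC 0.05, KRT17. DESeq2 and limma voom also called 0 at either dose. The difference between doses was tested directly. SPARC 5 against SPARC 0.5 called 5 of 8 keratins (4.8% of all genes), and SPARC 5 against SPARC 0.05 called the same 5 (8.29% of all genes). These were the 4 keratins above and KRT6B. These comparisons share the SPARC 5 samples with each other and with the comparison against control, and the 3 comparisons against control share the control samples.

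Against SPARC 0.5, SPARC 5 differed by 0.52 ± 0.06 (log2 ± SE) for KRT14, 0.40 ± 0.05 for KRT6A, 0.31 ± 0.04 for KRT6C, 0.22 ± 0.06 for KRT6B and −0.72 ± 0.14 for KRT15, with adjusted p between 5.35e-08 and 0.0251. The KRT6B call rested on single libraries: it was lost without SPARC 5 replicate 1, 2 or 3 or SPARC 0.5 replicate 2, 3 or 4, where the log2 difference was 0.17 to 0.22 (adjusted p = 0.0514 to 0.204), with library sizes alone (adjusted p = 0.0559) and without SPARC 5 replicates 2 and 5 (adjusted p = 0.0825). Against SPARC 0.05 the values were 0.62 ± 0.06 for KRT14, 0.49 ± 0.05 for KRT6A, 0.37 ± 0.04 for KRT6C, 0.27 ± 0.07 for KRT6B and −0.95 ± 0.14 for KRT15. The values of KRT16 were 0.20 ± 0.12 (adjusted p = 0.469) and 0.34 ± 0.12 (adjusted p = 0.063), and KRT16 was called against SPARC 0.05 without SPARC 5 replicate 3 or 4 (adjusted p = 0.0384 to 0.048) and by DESeq2 with all samples (adjusted p = 0.0396). Between SPARC 0.5 and SPARC 0.05, 0 of 8 were called by edgeR, DESeq2 or limma voom, also at an unadjusted p under 0.05 (0.179% of all genes called). A trend over the 4 groups, counted per dose step, called 4 of 8 keratins (11.1% of all genes): KRT15 at −0.35 ± 0.05, KRT14 at 0.16 ± 0.04, KRT6A at 0.13 ± 0.03 and KRT6C at 0.10 ± 0.02 log2 per step. Of these, KRT15 had means of 114, 102, 87.0 and 53.0 CPM, lower at each dose. The other 3 were not ordered by dose below the top dose: KRT14 (331, 302, 325 and 465 CPM), KRT6A (2113, 1995, 2120 and 2800 CPM) and KRT6C (51.4, 49.2, 51.1 and 63.6 CPM). Without SPARC 5 replicates 2 and 5 the trend called 2 of 8, KRT15 and KRT6A. KRT6B joined the trend calls without control replicate 5, SPARC 0.5 replicate 4 or SPARC 5 replicate 4 (adjusted p = 0.0394 to 0.0487), and KRT16 without control replicate 1 (adjusted p = 0.0207). With the GC content and length correction the trend called 6 of 8, KRT6B and KRT16 included, and with library sizes alone 5 of 8, KRT17 included (−0.03 per step, adjusted p = 0.00316).

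Ratios within a library do not depend on how libraries are scaled. KRT14 counts were 4.11 ± 0.348% of KRT5 counts at SPARC 5 and 2.93 ± 0.249% in control (SD, n = 5 each), a difference in mean log2 ratio of 0.49. KRT15 counts were 11.5 ± 2.08% of KRT14 counts at SPARC 5 and 34.7 ± 8.29% in control, a difference of −1.58. KRT6A counts were 24.7 ± 0.866% of KRT5 counts at SPARC 5 and 18.7 ± 1.88% in control, a difference of 0.41. In each of these 3 ratios the groups did not overlap, and a 2-sided exact permutation test over all arrangements of the 10 samples gave p = 0.00794, the smallest it can give, and 0.0317 after Benjamini-Hochberg adjustment over 12 tests. KRT16 counts were 0.237 ± 0.028% of KRT6A counts at SPARC 5 and 0.259 ± 0.041% in control, and this difference of −0.12 did not pass (exact permutation p = 0.365, adjusted 0.68). None of the 4 ratios passed at SPARC 0.5 or SPARC 0.05, where adjusted p was at least 0.238 in the same exact tests. The nearest was the KRT14 to KRT5 ratio at SPARC 0.05, which was 2.71 ± 0.111% and lower by −0.11 in mean log2.

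**Figure D3:**
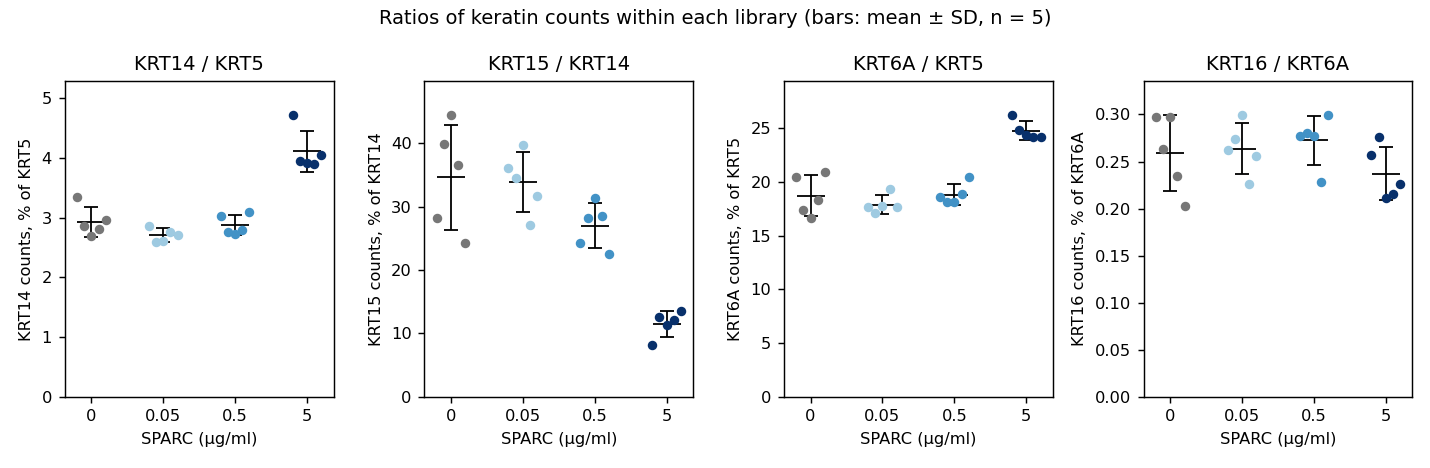
Counts of one keratin as a percent of another in the same library (vertical axes start at 0) at each SPARC dose in µg/ml, with 1 point per sample and bars for mean ± SD of 5 samples. At 5 µg/ml KRT14 to KRT5 and KRT6A to KRT5 lie above all controls and KRT15 to KRT14 lies below all controls, between 8.13% and 13.6%.

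In RNA of the 8 genes, the make-up of each keratin type shifted with these changes, while the balance of type I and type II did not move far. Per exon length, type I genes were 16.8 ± 0.084% of the CPM of the 8 keratins at SPARC 5 and 17.1 ± 0.25% in control. Keratins outside the 8 are not in these shares. Among them, type II KRT7 had 1101 CPM at SPARC 5 and 622 CPM in control, and type I KRT18 had 272 and 305 CPM. Protein was not measured here. Within type I, KRT14 took 27.8 ± 1.97% at SPARC 5 against 20.9 ± 1.34% in control, and KRT15 took 1.02 ± 0.145% against 2.32 ± 0.471%. KRT17 remained the largest type I share, with 70.8 ± 1.9% at SPARC 5 against 76.5 ± 1.23% in control. The CPM of KRT17 itself did not pass the test, as given above. Within type II, KRT6A took 26.4 ± 0.656% at SPARC 5 against 21.3 ± 1.68% in control and KRT5 72.7 ± 0.71% against 77.9 ± 1.69%. Shares computed per coding length had the same directions, with KRT14 at 20.2 ± 1.62% against 14.6 ± 1.05% and KRT15 at 2.39 ± 0.323% against 5.17 ± 1.01% of type I. The shares were not tested beyond the ratios above.

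**Figure D4:**
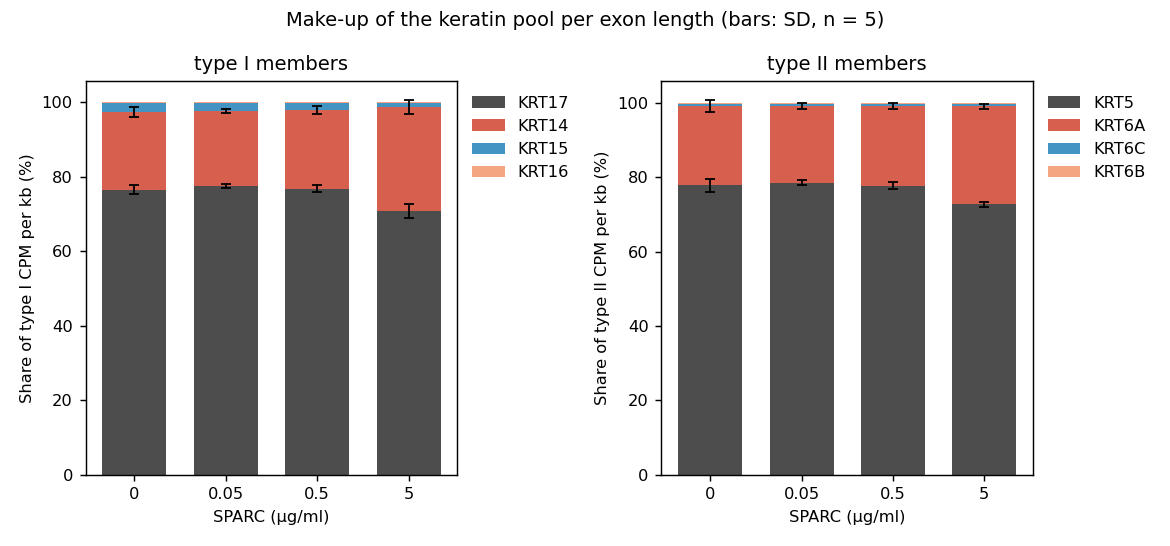
Mean share of each keratin, in percent of the CPM per kb of exons of its own type (left, type I; right, type II), at each SPARC dose in µg/ml, with bars of 1 SD (n = 5) for the larger shares. KRT14 widens to 27.8% of type I and KRT6A to 26.4% of type II at 5 µg/ml.

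Samples of the same dose also differed from each other, and the keratins did so partly together. With each group's mean removed, KRT14 and KRT6A had a Pearson correlation of 0.70 over the 20 samples (Spearman 0.75; 0.58 without the 2 samples farthest from the median of KRT14). KRT15 and KRT6A had −0.69 (Spearman −0.54; −0.60 without the 2 farthest), so samples with more KRT6A had less KRT15 at equal dose. KRT6C and KRT16 had 0.79 (0.69; 0.78), and KRT5 and KRT15 had 0.64 (0.50; 0.56). KRT6A and KRT17, a type II and a type I keratin of wounding, had 0.02. These are descriptions of 20 libraries that share their groups and scaling.

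**Figure D5:**
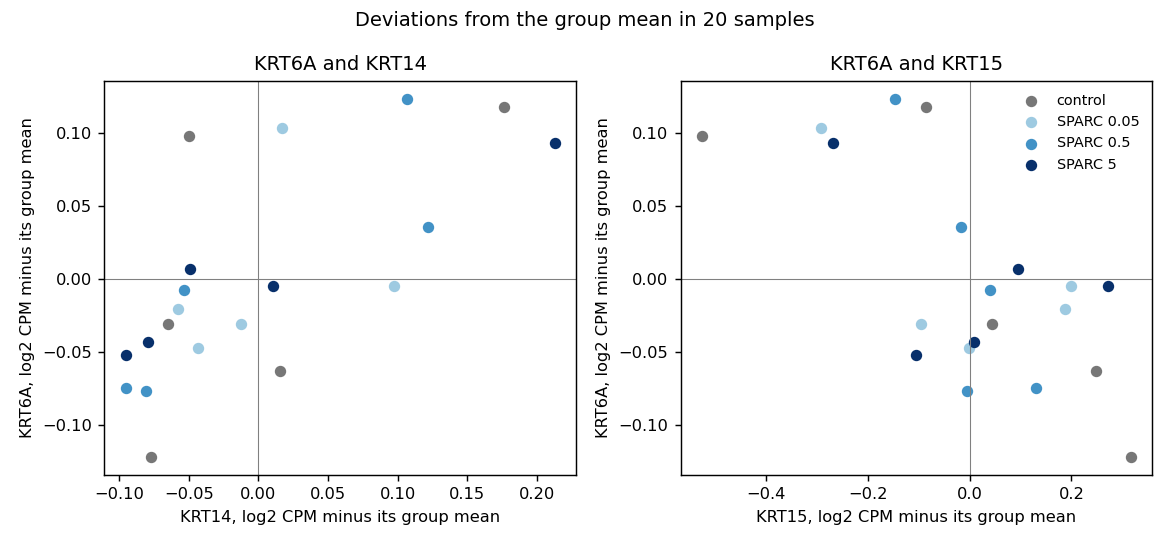
Log2 CPM minus the mean of its dose group for KRT6A (vertical) against KRT14 (left) and KRT15 (right), 1 point per sample, shaded by SPARC dose. The cloud rises for KRT14 (r = 0.70) and falls for KRT15 (r = −0.69).

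The libraries differed in how expression followed the GC content of genes. For each library, log2 CPM relative to the mean of all libraries was correlated with gene GC content. This value was 0.128 ± 0.107 in control (mean ± SD of 5 libraries). It was lower at every dose, at −0.035 ± 0.032 for SPARC 0.05, −0.060 ± 0.043 for SPARC 0.5 and −0.040 ± 0.084 for SPARC 5. Within groups, KRT15 correlated with this value at 0.43 (Pearson, Spearman 0.20), KRT17 at 0.48 (0.40) and KRT5 at 0.46 (0.26). KRT6A had −0.42 (−0.34) and KRT14 −0.16 (−0.12), and KRT16, KRT6C and KRT6B had Pearson values of 0.36, 0.18 and 0.17. With every library corrected for gene GC content and length, the SPARC 5 log2 fold changes were 0.53 ± 0.07 for KRT14, −1.09 ± 0.14 for KRT15, 0.44 ± 0.05 for KRT6A and 0.34 ± 0.04 for KRT6C, about as large as without it.

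RNA of genes whose proteins bind or organise keratin filaments changed in both directions. Of 20 filament partners, all tested, 3 rose, 5 fell and 12 did not pass at SPARC 5, where 7.05% of all genes rose and 4.58% fell, with a median log2 fold change of 0.01 where that of all genes was −0.01. DSP, the desmosomal plaque protein that anchors keratin filaments at cell contacts, rose to 1273 ± 12.3 CPM at SPARC 5, against 1119 ± 31.7 CPM in control (0.19 ± 0.02, adjusted p = 1.18e-12). SFN, the 14-3-3 protein of stratified epithelia, rose by 0.18 ± 0.02, and PLEC, the linker plectin, by 0.07 ± 0.02. PPL, the linker periplakin, fell by 0.30 ± 0.04 to 134 ± 3.91 CPM at SPARC 5, against 165 ± 12.8 CPM in control (adjusted p = 2.31e-08). The other falls were FBF1, PKP2, EVPL and EPPK1, between −0.31 and −0.11. At SPARC 0.5 DSP alone of the 20 was called (0.08, adjusted p = 0.0182).

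Of 26 transcription factors known to act on keratin genes, 24 were tested. At SPARC 5, 8 rose, 3 fell and 13 did not pass, against 7.05% of all genes that rose and 4.58% that fell, with a median of 0.02. JUN, an AP-1 subunit, rose by 0.32 ± 0.04 (adjusted p = 7.40e-11), SOX9 by 0.41 ± 0.05 (adjusted p = 2.45e-09) and TEAD1, a partner of YAP, by 0.18 ± 0.02 (adjusted p = 9.67e-10). FOSL2, another AP-1 subunit, fell by 0.21 ± 0.03, and FOS and TFAP2A fell too. TP63, the regulator of basal epithelium that acts on KRT5 and KRT14, had 283 ± 6.54 CPM at SPARC 5 and 266 ± 1.7 CPM in control, a rise of 0.09 ± 0.02 (adjusted p = 0.00535). TEAD1 was the factor called at SPARC 0.5 (0.14) and at SPARC 0.05 (0.10, adjusted p = 0.0194).

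Among keratins outside the group, most were at or below 1 CPM. Of 24 other type I keratins 8 were tested, and 1 was called at SPARC 5: KRT18, a keratin of simple epithelia, which fell by 0.17 ± 0.02. Of 22 other type II keratins 13 were tested, and 2 rose: KRT7 by 0.82 ± 0.03, to 1101 ± 18.3 CPM at SPARC 5 against 622 ± 39.1 CPM in control, and KRT80 by 0.32 ± 0.11. Of all genes tested, 11.6% were called at SPARC 5, so 1 of 8 and 2 of 13 were close to that share. The median was 0.03 for the type I list and 0.01 for the type II list. KRT7 makes up nearly all of the conjunctival and goblet cell markers, of which 1 of 7 had a mean of at least 1 CPM. That list summed to 1075 to 1121 CPM at SPARC 5 and 559 to 653 CPM in control, while its goblet cell markers MUC5AC and TFF1 were at most 0.166 CPM and 0 in all libraries. The 4 simple epithelial markers summed to 1359 to 1405 CPM at SPARC 5 and 856 to 979 CPM in control. Of these KRT7 alone rose, KRT18 fell, and KRT8 (log2 −0.24 ± 0.09, adjusted p = 0.055) and KRT19 (−0.02 ± 0.33) did not pass. The part of other cell types in the keratin values was not tested, and in bulk samples fewer cells of a type and less RNA per cell cannot be told apart.

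The 6 basal epithelial markers, which include KRT5 and KRT14, summed to 15863 to 16556 CPM at SPARC 5 and 14854 to 15469 CPM in control. Of the 6, 5 rose, all except KRT5, against 7.05% of all genes. With a minimum count of 100, 1467 of 12800 genes rose. KRT14 is among the 5 and was already counted above. The 5 corneal markers summed to 286 to 304 CPM at SPARC 5 and 278 to 284 CPM in control, and TP63, which is also on the basal list, makes up most of that sum. Of the others, ALDH3A1, the aldehyde dehydrogenase abundant in cornea, fell by 0.85 ± 0.12, to 3.81 ± 0.595 CPM at SPARC 5 against 6.88 ± 0.626 CPM in control (adjusted p = 3.03e-08), and PAX6 (log2 −0.00032 ± 0.11) and KRT3 (0.31 ± 0.21) did not pass. Of 23 genes that activated keratinocytes are known to raise, 12 were tested and 2 rose at SPARC 5, against 7.05% of all genes, with a median of −0.08. These were ITGA5, the fibronectin receptor subunit (0.25 ± 0.04, adjusted p = 1.84e-07), and AREG, an EGF receptor ligand (0.35 ± 0.06, adjusted p = 0.000464). The cytokine gene IL1A (0.28 ± 0.10, adjusted p = 0.0848) and the alarmin gene S100A9 (−0.73 ± 0.31, adjusted p = 0.133) did not pass. Of 15 keratin pseudogenes 8 were tested, and each had an adjusted p of at least 0.0745 at SPARC 5. They summed to 15.8 to 22.0 CPM at SPARC 5 and 17.3 to 21.0 CPM in control.

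The genes most like each keratin over the 20 samples were found by Pearson correlation of log2 CPM among 9616 other genes that averaged 10 CPM or more, and the difference between doses is part of each value. KRT14 was most like SERPINE2, a secreted protease inhibitor (r = 0.96), and SERPINB5, the serpin maspin (r = 0.96). SERPINE2 rose to 63.5 ± 6.24 CPM at SPARC 5, against 35.4 ± 4.06 CPM in control. KRT15 was most like ASS1, the arginine synthesis enzyme (r = 0.95), and FTL, the ferritin light chain (r = 0.95), which fell by 0.39 ± 0.05 and 0.36 ± 0.03 at SPARC 5. KRT6A was most like CTSC, the protease cathepsin C (r = 0.98), and TNS4, a tensin of cell-matrix contacts (r = 0.98), which rose by 0.30 ± 0.03 and 0.40 ± 0.03. With group means removed, KRT6A had r = 0.88 with CTSC and r = 0.83 with TNS4. In the same way KRT14 had 0.72 with SERPINE2 and 0.73 with SERPINB5, and KRT15 had 0.79 with ASS1 and 0.69 with FTL. KRT6C was most like COL17A1, the hemidesmosomal collagen, and DGKA, a diacylglycerol kinase (r = 0.92 each), and KRT6B like TMEM164 and AC018629.1 (r = 0.84 each). With group means removed these were 0.56 and 0.59 for KRT6C and 0.62 and 0.64 for KRT6B. For KRT5, KRT16 and KRT17 the values with the dose difference included were lower. KRT5 had r = 0.82 with IL20RB, KRT16 had r = 0.80 with PFN1P1 and r = 0.78 with ANXA2P2, and KRT17 had r = 0.74 with SNU13. With group means removed these were 0.86, 0.88, 0.71 and 0.70.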

How the data were processed

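RNA of 20 samples was sequenced after enzymatic removal of ribosomal RNA and random priming, as paired reads, per the labels' protocols. The authors deposited a table of whole read counts per Ensembl gene, and the submitters' processing notes list STAR 2.7.9a, featureCounts 2.0.3 of Subread, Salmon 1.5.2, bcl2fastq, limma and edgeR, and build GRCh38. Neither the annotation release nor the strand setting is given in the sources used here. Per the file headers, the authors deposited 1 comparison table a dose, with the log2 fold change and its interval, the p-value before and after adjustment, and limma's statistics t and B, which are score values and were not used.

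The count table had 60871 entries for 60671 identifiers. Of 368 entries that repeated 168 identifiers with the same counts, the first of each was kept, and 0.278% to 0.296% of the counts of a sample went with the rest. Genes were kept with filterByExpr (minimum count 10) and tested by edgeR 4.0.16 in R 4.3.3 (quasi-likelihood, robust estimates, TMM factors), all 4 groups in 1 fit and Benjamini-Hochberg adjustment over 22938 genes. A gene was called at an adjusted p under 0.05. The standard error is the log2 fold change divided by the square root of F. Log2 CPM used a prior count of 2, and ratios added 0.5 to each count. Alternatives used limma 3.58.1 (voom), DESeq2 1.42.0 and the other settings in the closing section. Lengths, GC content and transcripts came from GENCODE 29 (GRCh38). The common biological coefficient of variation was 6.68%, and the chi-square per gene was 4.09 to 9.55 in 40 pairs of samples that had the same dose, where counting noise alone gives about 1, so no sample was counted as a repeat of another. The main edgeR fit was tested on simulated data for SPARC 5 against control. Of 100 genes changed by 0.5 in log2 it called 69, and of 100 changed by 1 it called 94. The alternative settings and the trend were not checked in this way.

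The 8 keratins and the lists of filament partners, keratin regulators, other keratins, keratin pseudogenes, activation genes and cell type markers were chosen with earlier results of these data known. Besides the 8 members, the text names up to 4 genes of each list with the smallest p at SPARC 5, list genes behind a count of 5 or fewer, and the 2 genes most like each member, of which 1 is not reported here for KRT5 and 1 for KRT17.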

Additional observations from a re-analysis of the deposited data

Results flagged for a closer look

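In groups of 5 samples, a sample was marked when its gap to the nearest other sample was more than 0.71 of the range of the group. The marks were looked for in 48 groups, the 8 keratins in CPM and the 4 ratios at each dose, and chance marks about 1 group in 20. There were 3. KRT6A in SPARC 0.05 replicate 4 was 2142 CPM, above 1929 to 1987 CPM in the other 4 samples. The log2 ratio of KRT14 to KRT5 counts in SPARC 5 replicate 1 was −4.40, above the other 4 samples, where KRT14 was the highest of all 20 samples. Replicate 1 also had the highest KRT14 CPM of its group in control, SPARC 0.05 and SPARC 0.5. The log2 ratio of KRT16 to KRT6A counts in SPARC 0.5 replicate 4 was −8.77, below the other 4 samples. Without SPARC 5 replicate 1, the log2 fold change of KRT14 at SPARC 5 was 0.43, and the ratio of KRT14 to KRT5 differed by 0.44.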

How the results depend on the processing

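At SPARC 5, KRT14, KRT15 and KRT6A kept their direction and their call under all 32 alternatives, and KRT6C under all 31, with log2 fold changes of 0.43 to 0.53, −1.24 to −1.03, 0.36 to 0.44 and 0.26 to 0.34, and adjusted p of at most 0.00306. KRT5 at SPARC 5, near 0 in the main fit, was called lower with library sizes alone (−0.047), and in 19 of 32 alternatives its sign differed. Library sizes alone also called KRT17 at SPARC 5 (−0.09) and at SPARC 0.5 (−0.06), so that 1 keratin was called at SPARC 0.5, and lowered the share of higher calls among all genes at SPARC 5 to 31.3%, against 60.6% with TMM factors. A minimum count of 100 called KRT17 at SPARC 5 (−0.05, adjusted p = 0.0423), and DESeq2 called KRT6B (0.18, adjusted p = 0.0442). With KRT6A, KRT6B and KRT6C summed, 3 keratins were called for SPARC 5 against SPARC 0.5 and 3 against SPARC 0.05, since 3 genes became 1. Without SPARC 5 replicates 2 and 5 the trend called 2, with fewer samples in the fit. All genes called at SPARC 0.5 numbered 819 with DESeq2, against 517. At SPARC 0.05 they numbered 203 with DESeq2, 93 with a minimum count of 100, 14 after the GC content and length correction and 34 after it with the replicate block, against 61. The cause was not tested. 

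Over all genes, replicate numbers did not visibly pair the samples. Deviations of same-numbered samples correlated between −0.035 and 0.043 in 30 pairs, with a median of 0.013. Pairs with other numbers correlated between −0.064 and 0.083, with a median of −0.003. Of 20 libraries, 6 were closest to their own number. For KRT14, however, replicate 1 was the highest sample of each group, at 373, 323, 353 and 537 CPM from control to SPARC 5. The standard error of KRT14 at SPARC 5 was 0.025 with the replicate block and 0.065 without it. Whether replicate numbers mark a batch was not tested. With the replicate block 1 keratin was called at SPARC 0.05 (KRT14, −0.13, adjusted p = 0.00315), and with the block and the GC content and length correction 1 was called for SPARC 0.5 against SPARC 0.05 (KRT14), 6 in the trend, and KRT6B was called at SPARC 5 (0.21, adjusted p = 0.0123). The block gave 2753 called genes at SPARC 5, 612 at SPARC 0.5 and 87 at SPARC 0.05 among all tested. Without the block these were 2666, 517 and 61. The ratios paired by replicate number (0.49, −1.58 and 0.41) had an adjusted p of 0.15 in exact tests, since 5 pairs cannot give a p below 0.0625 before adjustment.

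Leaving out 1 library at a time, keratins called were 4 to 5 at SPARC 5, 0 to 1 at SPARC 0.5, 0 at SPARC 0.05, 4 to 5 for SPARC 5 against SPARC 0.5, 5 to 6 against SPARC 0.05, 0 for SPARC 0.5 against SPARC 0.05 and 4 to 5 in the trend. All genes called were 2236 to 2665, 267 to 611 and 22 to 82 from the top dose down. They moved by more than 1.5 times at SPARC 0.5 without SPARC 0.5 replicate 4 (267) or control replicate 3 (333), and at SPARC 0.05 without SPARC 0.05 replicate 2, 3 or 5 (22, 34 and 33) or control replicate 2, 3 or 4 (34, 39 and 23). The ratios at SPARC 5 were 0.44 to 0.54 for KRT14 to KRT5, −1.70 to −1.46 for KRT15 to KRT14 and 0.37 to 0.45 for KRT6A to KRT5. Without any 1 control their adjusted p was 0.0635, the smallest those arrangements allow. Levels per length used all annotated exons, with the coding length of the annotation as the alternative.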
